A study of Mus musculus with 8 samples.

Results

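The sites described here are cytosines at which 5-formylcytosine (5fC) was mapped in Tdg knockout mouse embryonic stem cells, while almost no read stayed unconverted under bisulfite alone. Of 7213 cytosines on the 5fC list, 690 had a bisulfite-only level, the share of bisulfite-only reads that still read as C, of less than 10%. Of these, 689 had 100 reads or less over both 5fC libraries, and 476 (6.60% of the list, exact 95% interval 6.04 to 7.20) also had no listed 5-carboxylcytosine (5caC) site within 1000 bp on either strand. These 476 are called the low-background sites. They were chosen by measured values, the bisulfite-only level and the read number in the same libraries that listed the sites, so bisulfite-only, protected and difference values of these sites are given as a description, without a test.

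The series holds 8 samples, 1 library for each of 8 groups. The values here come from 2 libraries of feeder-free embryonic stem cells grown in serum with LIF, labelled strain C57BL/6-ICR and genotype Tdg -/-. DNA of both was captured with antiserum against 5fC, and 1 library was then treated with traditional bisulfite while the other received O-ethylhydroxylamine before bisulfite. The corresponding pair captured with antiserum against 5caC, from cells of the same label, served to leave out sites near 5caC and to count how many 5fC sites had one near. The labels used here do not say whether the knockout line is a single clone. The Tdg fl/fl libraries were not analysed here. With 1 library in each group there is no spread between samples, and no test across samples could be made.

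TET enzymes oxidise 5-methylcytosine (5mC) stepwise to 5-hydroxymethylcytosine (5hmC), 5fC and 5caC. The glycosylase TDG cuts out 5fC and 5caC, after which base excision repair puts back an unmodified cytosine, so cells without TDG retain these bases. Bisulfite leaves 5mC and 5hmC to be sequenced as C. It converts cytosine, 5fC and 5caC, which are then sequenced as T. Hydroxylamine protection keeps 5fC reading as C, and the rise in unconverted reads with protection is the measured 5fC level. A C read with bisulfite alone therefore marks 5mC, 5hmC or incomplete conversion on captured DNA, and a T read with protection marks cytosine, 5caC or 5fC that was not protected. The levels refer to DNA captured by the antiserum, not to all copies in the cells.

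With protection, about 1 of every 2 captured reads at the low-background sites was unconverted. The median site went from 5.56% unconverted reads with bisulfite alone (exact binomial 95% interval of the median over sites 0 to 6.25, quartiles 0 and 7.69) to 50% with protection (50 to 53.3, quartiles 42.1 and 60). The median 5fC level was 46.2 percentage points (44.8 to 47.1), and single sites ranged from 15.6 to 100. The smallest difference that could list each site, given its reads, had a median of 38.0 points. Listing thus keeps upward chance deviations of the 5fC level, by an amount that was not measured. Summed over sites, 4171 of 8341 reads (50.0%) were unconverted with protection, and 277 of 6476 (4.28%) with bisulfite alone. Protected reads were all unconverted at 2 sites (0.420%), 20 sites (4.20%, exact interval 2.59 to 6.41) reached 80% and 214 (45.0%) stayed under 50%. Over the whole 5fC list these shares were 20.7%, 62.5% and 5.70%. The rule chose low bisulfite-only levels, at which lower protected levels can be listed, so nothing is read from these counts. The intervals given treat cytosines as independent, and like all intervals here they cover counting error or spread over sites in these libraries, not between cultures.

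Sites of the 5fC list with higher bisulfite-only levels had fewer converted reads left after protection. With the same limits on reads and 5caC, 2638 sites had a bisulfite-only level of at least 10% and under 50%, and their median protected level was 80% (79.2 to 80). A further 2232 sites had a bisulfite-only level of 50% or more, here called the high-background sites. Their median protected level was 100%, and 1191 of them (53.4%) had no converted protected read. Listing requires a protected level above the bisulfite-only level, so the class limits and the listing by themselves produce such an order. The lowest protected level was 15.6% at low-background sites, 35.8% in the middle class and 75% at high-background sites. Nothing further is read from the order of the classes. The 5fC level itself had a median of 47.2 points in the middle class and 33.3 points at the high-background sites, where it cannot exceed 50 points by construction. A difference of at least 50 points was met by 186 low-background sites (39.1%, 34.7 to 43.6), while 23.5% of the whole 5fC list met it. The rule for the sites used this same contrast, so nothing is read from that count.

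**Figure D1:**
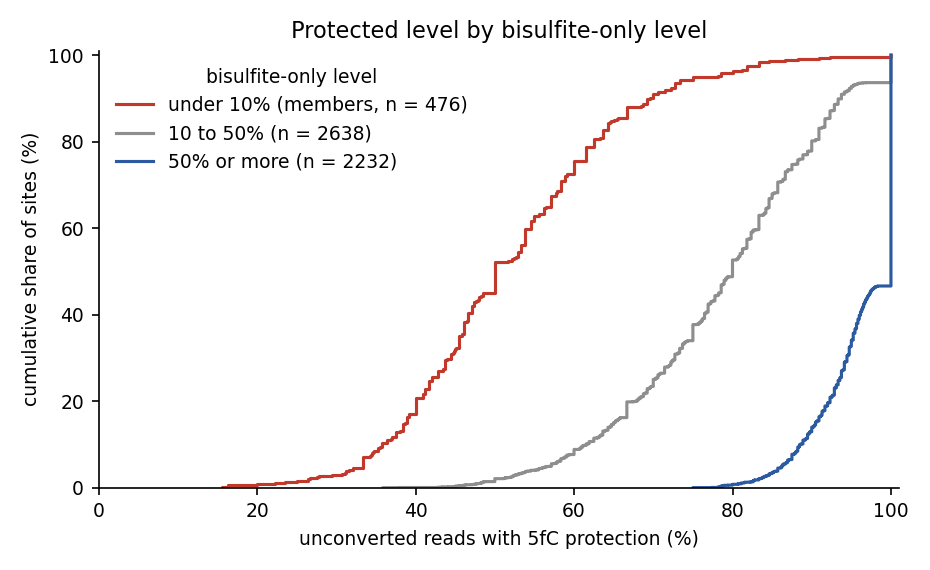
Cumulative share of sites (y axis, %) against the percentage of unconverted reads with 5fC protection (x axis) for sites with no 5caC site within 1000 bp and 100 reads or less, in 3 classes of bisulfite-only level. The low-background curve crosses the middle of the y axis at 50% unconverted reads, the middle class at 80%, and 53.4% of high-background sites sit at 100%. Listing requires a protected level above the bisulfite-only level, so the class limits and the listing by themselves produce such an order.

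The low bisulfite-only level is what the sites were chosen for, and the reads of a single site bound that level only loosely. No unconverted bisulfite-only read was present at 219 sites (46.0%), 1 read at 239, 2 at 16 and 3 at 2 sites. Yet 320 sites (67.2%) had 10 to 13 bisulfite-only reads, and 0 of 10 reads allows a level of up to 30%. The upper exact 95% limit of the bisulfite-only level ranged from 8.22% to 41.3% over the 476 sites, with a median of 30.8%. It was under 10% at 2 sites, under 20% at 17 and under 30% at 208. The rule keeps downward chance deviations of the bisulfite-only level, so the pooled 4.28% is biased downward. How far was not measured, because the lists hold no second bisulfite-only library at these cytosines.

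At the threshold, read number decided class. The highest bisulfite-only level among the low-background sites was 9.52%, 2 of 21 reads, at 3 sites, and 61 sites stood at 9.09%. Just outside, 102 sites with suitable depth and no near 5caC stood at exactly 10%, of which 99 had 1 unconverted read among 10. A site with 10 bisulfite-only reads thus entered only with no unconverted read. An example just inside is position 91540358 of chromosome 15, minus strand (mm9, as all positions here), with 13 of 23 protected and 2 of 21 bisulfite-only unconverted reads. Just outside lay position 109766329 of chromosome 8, minus strand, with 26 of 30 and 1 of 10. The low-background site nearest to a listed 5caC site was 1076 bp away, and the farthest site left out for a near 5caC site was 944 bp from it.

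Depth also set which 5fC levels could be listed. All sites of the list had at least 10 reads in each library and an unadjusted p under 0.05 in the authors' deposited table. Against 0 unconverted of 10 bisulfite-only reads, listing needs at least 5 unconverted of 10 protected reads, or 8 of 20. At 149 low-background sites (31.3%) the unconverted protected reads were exactly the fewest that could be listed, and at 120 sites there was 1 more. Sites with at least 5 more unconverted reads than needed numbered 44 (9.24%). The median protected level was 54.5% at the 106 sites with 20 to 24 reads and 41.2% at the 69 sites with 40 to 100 reads. Low depth was general, and 446 of the 476 sites (93.7%) had under 20 reads in at least 1 library. Protected reads numbered 10 to 58 per site (median 16), and bisulfite-only reads 10 to 43 (median 12).

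**Figure D2:**
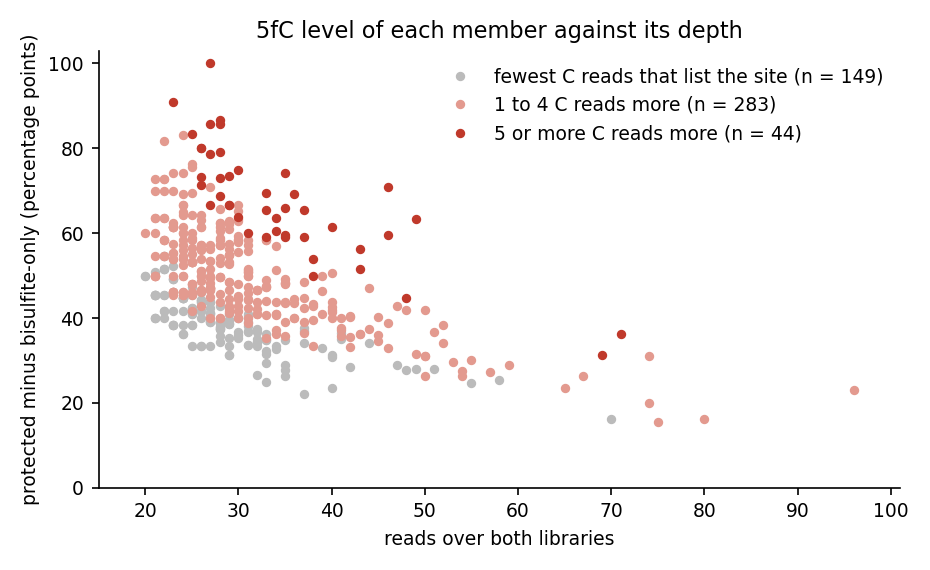
5fC level in percentage points (y axis) of each of the 476 low-background sites against its reads over both libraries (x axis), with colour for how many unconverted protected reads the site had beyond the fewest that list it. The 149 grey points mark the lower edge of what could be listed, which falls as reads rise, and the 44 dark points stand at least 5 reads above it.

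The 10 highest 5fC levels were found on 8 chromosomes, and 7 of these sites had no unconverted bisulfite-only read. Their levels ran from 80 to 100 points, on 22 to 28 reads each. Position 53937962 of chromosome 6, plus strand, kept C in 17 of 17 reads with protection (80.5 to 100%) and in 0 of 10 with bisulfite alone. Only 4 bp away, position 53937958 on the same strand was listed with 16 of 18 protected and 3 of 11 bisulfite-only reads unconverted. Adjacent cytosines on 1 strand can share reads, so they are not separate observations of the captured DNA.

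The next highest was position 163335909 of chromosome 2, plus strand. It kept C in 12 of 12 reads with protection (73.5 to 100%) and in 1 of 11 without (upper limit 41.3%). Its listed neighbour 20 bp away, on the same strand, had 11 of 13 and 4 of 13. On the same chromosome, position 164359450, plus strand, gave 12 of 14 and 0 of 13. There a cytosine on the other strand, 93 bp away, read as C in 11 of 11 protected and 6 of 11 bisulfite-only reads (54.5%, 23.4 to 83.3). So a site with no unconverted bisulfite-only read (upper limit 24.7%) lay within 100 bp of one with 6. The intervals of these bisulfite-only levels overlap. Position 97235052 of chromosome 15, plus strand, had 10 of 12 and 0 of 13 and no listed neighbour within 200 bp. The sites at position 127157612 of chromosome 3 (12 of 13 and 1 of 15) and position 44691938 of chromosome 16 (10 of 11 and 1 of 13) each had 1 listed neighbour, at a bisulfite-only level of 16.7% and 36.4%.

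The 10 sites with the most reads had far lower levels, from 15.6 to 36.3 points, on 65 to 96 reads. They include the sites with the lowest upper limits on the bisulfite-only level. Position 63236376 of chromosome 2, plus strand, had 0 unconverted of 43 bisulfite-only reads, an upper limit of 8.22%, and 5 of 32 with protection (15.6%, 5.28 to 32.8). Position 58868861 of chromosome 14, minus strand, gave 0 of 39 (upper limit 9.03%) and 7 of 35 (20%, 8.44 to 36.9). These 2 are the only sites with an upper limit under 10%, and their protected levels are among the lowest of the set.

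The other deep sites ranged on either side of this level. Position 101119114 of chromosome 4, plus strand, gave 8 of 49 (16.3%, 7.32 to 29.7) and 0 of 31, and position 61435834 of chromosome 13, minus strand, 7 of 43 (16.3%, 6.81 to 30.7) and 0 of 27. Position 96374508 of chromosome 13, minus strand, kept C in 15 of 48 reads with protection (31.3%, 18.7 to 46.3) and in 0 of 21 without (upper limit 16.1%). Its protected interval overlaps that of the chromosome 14 site. Position 45719857 of chromosome 19, plus strand, gave 21 of 47 (44.7%, 30.2 to 59.9) and 2 of 24 (8.33%). It had listed neighbours 13 and 175 bp away on the same strand, with bisulfite-only levels of 33.3% (6 of 18) and 63.6% (14 of 22). The deepest site, position 191713370 of chromosome 1, plus strand, gave 18 of 58 (31.0%) and 3 of 38 (7.89%).

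Listed neighbours give a view of the surroundings, but some of them belong to the classes themselves and were chosen by the same limits. Another 5fC site was listed within 200 bp of 170 low-background sites (35.7%, exact interval 31.4 to 40.2). This share was 26.8% (24.96 to 28.7) at the high-background sites, 35.9% (34.1 to 37.8) in the middle class, and 38.4% (37.2 to 39.5) over the rest of the list. The low-background sites were the shallower set, with a median of 28 reads against 34 at high-background sites. So the low-background share stood above that of the high-background sites and beside those of the middle class and of the rest. The rest is not held to the limits on reads and 5caC. With at least 20 reads in each library the share with a neighbour was 66.7% (47.2 to 82.7) of the 30 low-background sites left, 31.6% (27.4 to 36.0) of 472 high-background sites and 54.9% (52.4 to 57.4) of 1531 sites of the rest. Cytosines are not replicates and neighbours share fragments, so the intervals are too narrow and no p is given.

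The neighbours of low-background sites had lower bisulfite-only levels than those of high-background sites, but were mostly not low themselves. The 227 neighbours, each counted once, had a median bisulfite-only level of 25% (21.7 to 27.3, quartiles 12.8 and 38.7). It was 35.3% (33.3 to 36.4) for the 1096 neighbours of the middle class and 50% (47.1 to 50.9) for the 745 neighbours of high-background sites. A level under 10% was found at 44 of 227 neighbours (19.4%, 14.5 to 25.1), against 26 of 745 (3.49%, 2.29 to 5.07) beside high-background sites, 11.9% in the middle class and 9.95% (8.85 to 11.1) over neighbours of the whole list. A level of 50% or more was found at 28 (12.3%, 8.36 to 17.3) against 383 (51.4%, 47.8 to 55.1), 27.7% and 34.6% (32.8 to 36.4) in the same order. Of the 170 low-background sites with a neighbour, 126 (74.1%) had neighbours at 10% or more only, and 27 had at least 1 at 50% or more. With protection the neighbours of low-background sites had a median of 75% unconverted reads (70.8 to 78.6).

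Neighbours on the other strand cannot lie on the same bisulfite read as the site. Such a neighbour within 200 bp was listed for 40 low-background sites (8.40%, 6.07 to 11.3). The rest of the list, not held to the limits on reads and 5caC, had 8.76% (8.09 to 9.46). The share was 6.41% (5.50 to 7.41) in the middle class and 3.49% (2.77 to 4.34) for high-background sites. The 56 other-strand neighbours of low-background sites had a median bisulfite-only level of 22.9% (14.3 to 30.8), and the 96 of high-background sites 43.3% (35 to 50). The median was thus lower beside low-background sites on the opposite strand too. Of these neighbours, 13 of the 56 are low-background sites themselves, and 28 of the 96 are high-background sites. On either strand, the 44 neighbours under 10% are themselves low-background sites and were chosen for that level. Likewise, 346 of the 745 neighbours of high-background sites are high-background sites, so the class limits enter both medians. With neighbours limited to a bisulfite-only level of at least 10% and under 50%, the medians were 26.7% (23.5 to 30) for 155 neighbours of low-background sites and 33.3% (33.3 to 35.7) for 336 of high-background sites. On the other strand alone these were 23.5% (20 to 30.8, 35 neighbours) and 30.8% (25 to 35.7, 49 neighbours). The middle class had 33.3% there (30 to 36.4, 110 neighbours). These intervals overlap, so no difference is read on the other strand among neighbours of this range.

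By distance, neighbours within 10 bp of a low-background site had a median bisulfite-only level of 23.1% (13.6 to 27.3, 37 neighbours), those at 11 to 50 bp 21.4% (17.4 to 27.3, 89), those at 51 to 100 bp 30% (23.1 to 33.3, 63) and those farther off 30.4% (16 to 46.7, 38). The 4 intervals overlap.

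**Figure D3:**
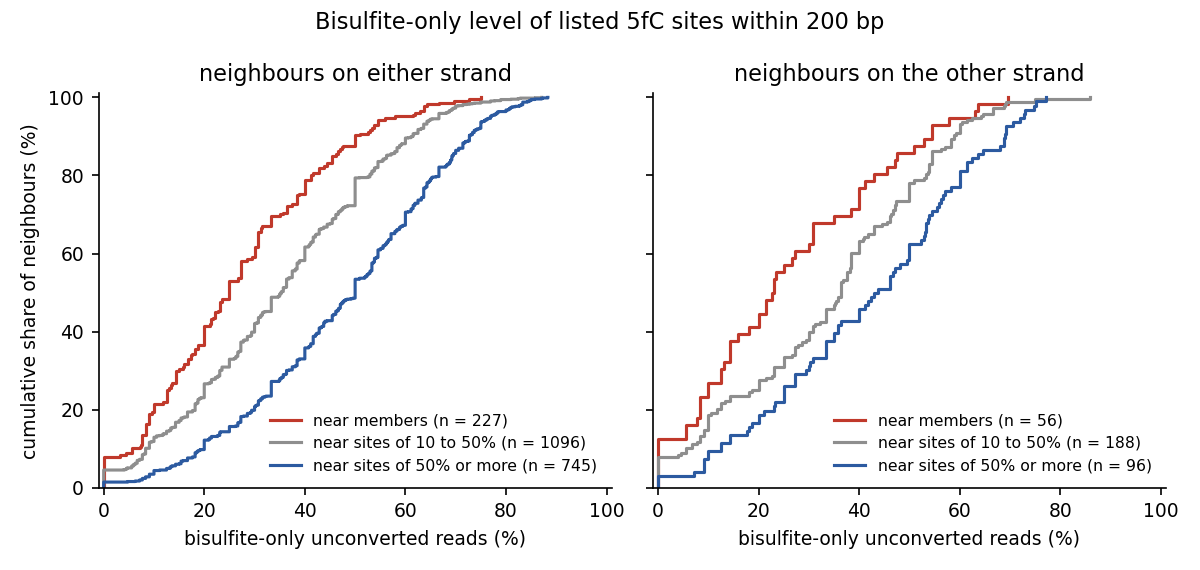
Cumulative share (y axis, %) of listed 5fC sites within 200 bp of low-background, middle and high-background sites, against the bisulfite-only percentage of unconverted reads of those neighbours (x axis), on either strand (left) and on the other strand only (right). Medians are 25%, 35.3% and 50% on the left, and 22.9% and 43.3% for low- and high-background sites on the right.

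Most low-background sites had no other low-background site within 200 bp. Joined at 200 bp, the low-background sites formed 453 groups, of which 432 held a single site, 19 held 2 and 2 held 3. No such count was made for other classes. Low-background sites are 6.60% of the list, so these counts do not show that they lie apart. Among their listed neighbours 19.4% were under 10%, all of them low-background sites chosen for that level, against 9.95% over neighbours of the whole list. On chromosome 19, from 37761014 to 37761063, 3 minus-strand cytosines within 50 bp had protected counts of 10 of 14, 8 of 14 and 13 of 15 and bisulfite-only counts of 1 of 12, 0 of 12 and 0 of 13. Their median 5fC level was 63.1 points. The other group of 3, on chromosome 5 from 100335271 to 100335322, spanned both strands. Its minus-strand cytosines gave 5 of 12 and 5 of 11 protected reads against 0 of 13 and 0 of 14, and its plus-strand cytosine gave 6 of 10 against 1 of 12. Among the pairs, the highest median level was on chromosome 9, at 103404528 and 103404543, with 10 of 16 protected reads at each and 1 of 13 and 1 of 11 bisulfite-only reads. No further 5fC site was listed within 200 bp of these 3 groups.

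A CpG can carry 5fC on either strand. For 5 low-background sites (1.05%, 0.342 to 2.43) the cytosine 1 bp away on the other strand, the partner if the site is a CpG, was also on the 5fC list. This held for 59 of 6737 sites in the rest of the list (0.876%, 0.667 to 1.13). At positions 114423118 and 114423119 of chromosome 9 both cytosines were low-background sites, with 9 of 18 and 6 of 11 protected reads unconverted and 1 of 12 and 0 of 13 with bisulfite alone. The other 3 had a partner with more unconverted bisulfite-only reads. On chromosome 12, position 100883326, plus strand, had 8 of 17 protected and 1 of 11 bisulfite-only reads (upper limit 41.3%), while its partner on the minus strand had 41 of 57 and 28 of 55 (50.9%, 37.1 to 64.6). On chromosome 7, position 141963079, minus strand, gave 8 of 13 and 0 of 15 (upper limit 21.8%), and its partner 22 of 43 and 5 of 22 (22.7%, 7.82 to 45.4). On chromosome 1, position 192632843, minus strand, gave 11 of 20 and 1 of 12, and its partner 10 of 15 and 3 of 13. In each of these 3 pairs the intervals of the bisulfite-only levels overlap. An unlisted partner is not shown to lack 5fC, since its reads are not in the list.

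A listed 5caC site was near a larger share of the low-level 5fC sites than of the sites with high bisulfite-only levels. Of the 689 low-level sites with 100 reads or less, 213 (30.9%, 27.5 to 34.5) had a listed 5caC site within 1000 bp. The share was 26.6% (25.1 to 28.0) of 3592 sites with a bisulfite-only level of at least 10% and under 50%, and 14.6% (13.3 to 16.1) of 2615 sites at 50% or more. At the same cytosine, 60 low-level sites (8.71%, 6.71 to 11.1) were on the 5caC list, as were 213 sites (5.93%, 5.18 to 6.75) of the middle class and 21 sites (0.803%, 0.498 to 1.22) of the highest class. The lists for 5fC and 5caC come from separate libraries, each with its own depth, and the part of depth and of the listing limits in this difference was not tested. The 213 sites removed had 5fC values close to the 476 kept, with a median protected level of 50% (48 to 53.8) and a median 5fC level of 45.8 points (43.8 to 49.4). For the 476, the nearest 5caC site on the chromosome was a median of 108325 bp away, and 50 sites (10.5%) had one within 10000 bp.

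Low-background sites lay on all 19 autosomes. The plus strand held 218 of them and the minus strand 258, so 45.8% were on the plus strand (41.3 to 50.4), where 50.7% of high-background sites were (48.6 to 52.8). Chromosome 5 held the most, 54 sites (11.3%, 8.64 to 14.5), and 8.40% (7.75 to 9.09) of the rest of the list. Chromosome 8 held 16 sites (3.36%, 1.93 to 5.40) and 5.94% (5.38 to 6.53) of the rest. On X there were 2 sites (0.420%, 0.0509 to 1.51), against 69 of 6737 (1.02%, 0.798 to 1.29) in the rest. The intervals of the low-background sites and of the rest overlap on each of the 19 autosomes and on X. A further 1 site lay on Y and 1 on sequence not placed on a chromosome.

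**Figure D4:**
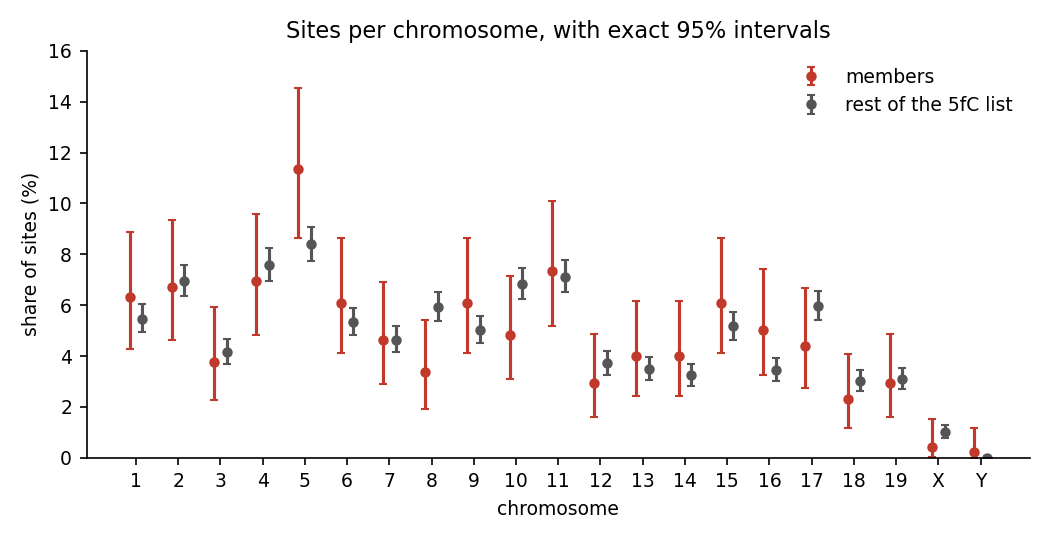
Share of sites (y axis, %) on each chromosome (x axis) for the 476 low-background sites and the 6737 other sites of the 5fC list, with exact 95% intervals as bars. Chromosome 5 holds 11.3% of low-background sites and X 0.420%, and the bars of both sets overlap on each autosome and on X.

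The sites are given by position only. No mm9 genome or gene annotation was used here, so genes, promoters, sequence context and sequence itself are not shown, and whether the cytosines lie in CpGs was not analysed here.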

How the data were processed

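DNA of Tdg knockout cells was immunoprecipitated, protected or not, and treated with bisulfite, per the labels' protocols. Bismark, HOMER and the mm9 build are named in the submitters' processing notes, with no step given for each. The authors deposited, per listed cytosine, read counts of C and T in each library, not normalized, with a difference of fractions and a p-value. The deposited difference was within 0.0001 of that recomputed from the counts, and the deposited p-value within 1% of a two-sided Fisher's exact test, at all 7213 5fC sites. Removal of copied reads is not mentioned in the labels' protocols, so reads may not be independent molecules.

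Columns were assigned to libraries by name and sample title. Percentages of C reads per site were computed, with exact (Clopper-Pearson) 95% intervals for shares and exact binomial intervals for medians over sites. Where 0 reads were unconverted, the printed limit is 3 counts over all reads of the site, or the exact upper limit. Distances ignored strand unless stated. The members and lists were chosen with earlier results of these data known. Named sites are the 10 with the highest difference, the 10 with the most reads, the 5 groups with the most members, sites with a listed partner and those at the thresholds, of which examples are printed. The method was tested on simulated data whose bisulfite-only levels lay far from the 10% limit, so errors near that limit were not tested. Alternatives changed each limit of the rule, the depth minimum and the neighbour window. The work used Python 3.11.15 with scipy 1.17.1, pandas 2.3.3, numpy 2.4.6, and matplotlib 3.10.9 for plots. The floxed libraries were not analysed here.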

Additional observations from a re-analysis of the deposited data

How the results depend on the processing

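Of 53 alternative values, 34 lay within the interval of the reported value or, for the number of sites, within 1.5 times the reported 476. The median bisulfite-only level of neighbours did so under all 14 tried for it, between 22.9% and 27.3%. Under each of 10 of these limits the median beside high-background sites was higher, at 46.3% to 55.3%. Those on the bisulfite-only level changed the low-background class only, and the high-background class stayed as reported. The restriction to neighbours of 10 to 50% was added after seeing the data. The plus-strand share also stayed within its interval under both of its alternatives. The limits themselves set the number of sites and their level. With a bisulfite-only level under 5% there were 231 sites with a median protected level of 45.5%, under 20% 983 sites with 59.1%, and with no unconverted bisulfite-only read 219 sites with 46.2%. With at least 15 reads in each library 92 sites were left, with a median protected level of 41.0% and 51.1% having a neighbour within 200 bp. With at least 20 reads 30 sites were left, with 35.1% and 66.7% (47.2 to 82.7). Why these values moved with depth was not tested. The share with a neighbour was 30.6% with no unconverted bisulfite-only read, 31.3% within 100 bp, 40.8% within 1000 bp and 8.40% on the other strand. It was above that of high-background sites, 25.4% to 31.6%, under each of the same 10 limits. The share of low-level sites with a near 5caC site was 24.1% within 100 bp, 38.2% within 10000 bp, and 45.5% within 1000 bp with at least 20 reads. No paired analysis was possible because each group had 1 library.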

Other observations

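The 60 low-level 5fC sites that are also on the 5caC list, which the 5caC step left out, are the only ones of this level with a second bisulfite-only library. In the 5caC bisulfite-only library their median level was 5.41% (exact binomial interval 2.94 to 7.14), 45 of them (75%) were under 10%, and the highest was 28%. Over all 4806 listed 5caC sites the median was 10% and 47.8% were under 10%. Listing for 5caC used the reads of this same bisulfite-only library, so this is not an independent measure of these cytosines. How far that listing shifts the level was not tested. The values do not cover the 476 low-background sites.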
